A study of Mus musculus with 6 samples.

Results

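The unfolded protein response and the integrated stress response were followed here through 35 genes, chosen by name for their roles, at a time when earlier results of these arrays were known. RNA of inflammatory monocytes was read on 6 Mouse Gene 2.0 ST arrays, where short probes along a gene are summed up as 1 intensity for a probe set. Of the 35 genes 34 were measured by a probe set that carries that symbol alone, and all 34 passed the filter on low values, out of 18458 genes tested. Pdia4 was not measured in this way and has no value here. The genes fall into 13 chaperones and folding factors of the endoplasmic reticulum (ER) and 5 genes that comprise the sensors and the transcription factor Xbp1. A further 7 are genes of ER-associated degradation, and 9 are of the branch run by the transcription factor Atf4. Every mouse had been given Th9 cells (helper T cells) and its tissue was taken 10 days later. Cells were flow-sorted as CD11b positive, CD11c negative and Ly6C high, from spleen (3 arrays) or from tumor (3 arrays). The question was how tumor monocytes differ from splenic ones in the treated animals. There was no group without Th9 cells, the strain entry of the labels reads only Th9, and neither the tumor type nor the strain or age of the mice is stated in the sources. Whether the 3 samples of a group are from different mice is not stated either, so p-values reflect only how these samples spread, which may be technical.

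The ER folds proteins that are to be secreted or placed in membranes. When unfolded protein builds up there, the sensors Ern1 (IRE1), Atf6 and Eif2ak3 (PERK) start the unfolded protein response. Ern1 splices the Xbp1 messenger RNA, Atf6 is cut into a transcription factor, and together these raise chaperones and degradation factors. Eif2ak3 phosphorylates the translation factor eIF2, which slows protein synthesis in general and favours translation of Atf4. The kinases Eif2ak4 (GCN2), Eif2ak2 (PKR) and Eif2ak1 (HRI) phosphorylate the same factor on amino acid shortage, double-stranded RNA and haem shortage, and the shared downstream program is called the integrated stress response. Ppp1r15a (GADD34) brings a phosphatase to eIF2 and ends it. Arrays measure total messenger RNA per gene. Splicing of Xbp1, cleavage of Atf6, phosphorylation of eIF2 and the amount of Atf4 protein were not measured.

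Only 3 genes of the response were called in the comparison of tumor with spleen by group. Herpud1, a degradation factor, and Eif2ak3, a sensor, were lower in tumor, and Ppp1r15a, the phosphatase subunit, was higher. Levels are log2(intensity + 1), and differences are tumor minus spleen on that scale with their standard error (SE) from limma, n = 3 arrays per group. Called means an adjusted p below 0.05 over all genes tested. Of the 34 genes 3 were called (8.82%), 2 lower and 1 higher. Of all genes tested 10.6% were called, 5.73% higher and 4.85% lower, so the share of called genes was near that of the whole table. The median difference was -0.19 over the 34 genes and -0.05 over all genes tested, and 25 of the 34 differences were negative (73.5%, against 58.6% of all genes). The difference was under 1.5-fold for 31 of the 34 genes (91.2%) and for 85.4% of all genes, so the members resembled the table in this. After quantile normalization 1 was called higher and 11 lower (32.4%, against 10.4% of all genes lower). After median centring 1 was higher and 8 lower (23.5%, against 9.79%), and after cyclic loess 2 were higher and 4 lower (11.8%, against 7.21%). The shares of all genes called higher were 8.59% after quantile normalization, 8.03% after median centring and 10.0% after cyclic loess.

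Once each group's mean was taken off, spleen 3 and tumor 3 varied alike across genes, with a correlation of 0.71. Numbers 1 and 2 were not matched by number in this way. Spleen 1 gave 0.36 with tumor 1 and 0.47 with tumor 2, and spleen 2 gave 0.35 and 0.44. For numbers 1 and 2, a pair of equal number is thus a pair by label only. With the replicate number as a block in the fit more genes were called. Of the 34 genes 18 were then called (52.9%), 14 lower (41.2%) and 4 higher (11.8%). Of all genes tested 29.0% were called with this replicate block, 17.3% lower and 11.7% higher, so the share of genes called lower was larger among the 34, a difference that was not tested. All 3 tumor values lay below all 3 spleen values for 11 of the 34 genes (32.4%) and above them for 3 (8.82%), against 15.6% and 9.81% of all genes tested. The other 20 had overlapping groups. The difference kept its sign in all 3 pairs of equal number for 25 genes, negative in 19 (55.9%, against 33.0% of all genes) and positive in 6 (17.6%, against 19.9%). With the arrays numbered 1 and 2 alone, which leaves out the pair numbered 3, 4 genes were called lower (11.8%) and 1 higher, where 8.41% of all genes were lower and 7.53% higher.

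**Figure D1:**
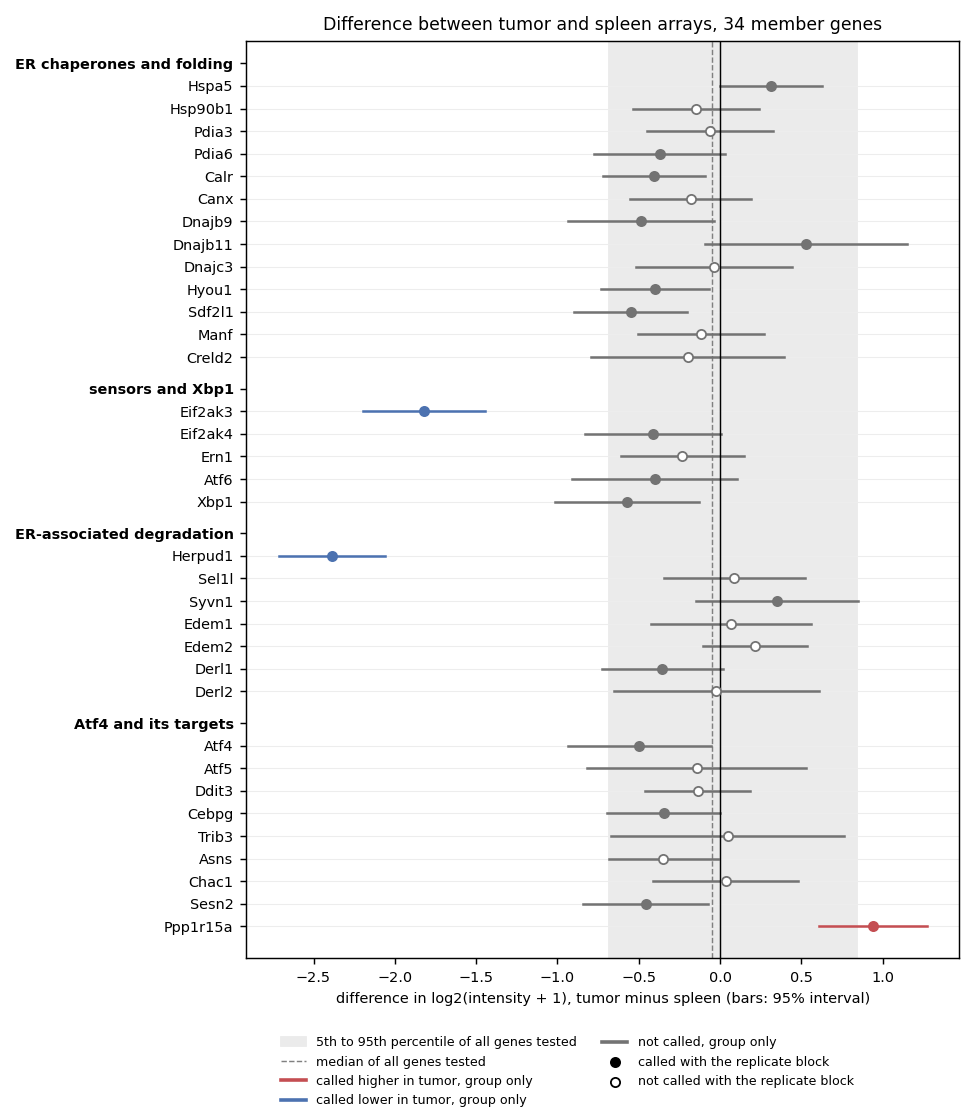
Difference between tumor and spleen (x axis, log2(intensity + 1), tumor minus spleen) of the 34 genes by role, with bars for the 95% interval; the grey band spans the 5th to 95th percentile of all genes tested, -0.68 to 0.84, and the dashed line is their median of -0.05. Herpud1 and Eif2ak3 lie far below the band, Ppp1r15a lies just above it, and filled points mark genes called with the replicate block.

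Herpud1 had the largest fall of these genes. It encodes a membrane protein of the ER with a ubiquitin-like domain, which supports the ligase complex that removes misfolded protein, and it is a well-known target of both the unfolded protein and the Atf4 response. Its level was 10.54, 10.64 and 10.67 in spleen 1 to 3 and 8.15, 8.38 and 8.16 in tumor 1 to 3 (probe set 17504005, Entrez gene 64209). All tumor arrays lay far below all spleen arrays, with a spread inside each group much smaller than the gap. The difference was -2.39 ± 0.14 (95% interval -2.72 to -2.06), a 5.23-fold lower intensity (adjusted p = 2.17e-05). Pairs of equal number gave -2.38, -2.26 and -2.52. Only 5 of the 18458 genes tested had a more negative difference. Fewer cells that make a transcript and less of it per cell cannot be told apart in such bulk samples.

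The promoter of Herpud1 is shown because it carries elements of both arms of the response, and that of Hspa5 because it carries the classic element of chaperone genes. Sequences are from RefSeq, build GRCm38.p6, read 5′ to 3′ on the gene's strand, and give the 150 bases before the transcript start. Capitals in Herpud1 mark first the C/EBP-ATF element, here in reverse orientation, and then ERSE-II, a form of the ER stress response element. Capitals in Hspa5 mark the 2 ends of ERSE. The Herpud1 stretch lies at chr8:94386279-94386428 on the plus strand and that of Hspa5 at chr2:34771940-34772089 on the plus strand.
Herpud1: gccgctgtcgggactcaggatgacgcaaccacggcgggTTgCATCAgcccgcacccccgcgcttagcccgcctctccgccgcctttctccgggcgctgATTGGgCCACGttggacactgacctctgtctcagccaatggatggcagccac
Hspa5: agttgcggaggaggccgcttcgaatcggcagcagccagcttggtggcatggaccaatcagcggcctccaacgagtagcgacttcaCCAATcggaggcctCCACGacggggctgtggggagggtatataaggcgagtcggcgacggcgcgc

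Eif2ak3 was the other gene called lower. It encodes PERK, the sensor that couples unfolded protein in the ER to eIF2. Its level was 7.87, 7.90 and 8.03 on the spleen arrays and 5.91, 6.07 and 6.37 on the tumor arrays (probe set 17459425, Entrez gene 13666). The groups did not overlap. The difference was -1.82 ± 0.16 (95% interval -2.19 to -1.45), 3.53-fold (adjusted p = 0.000219), and pairs of equal number gave -1.96, -1.83 and -1.67. It ranked as number 19 from the lowest difference of all genes tested.

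The other sensors pointed the same way without being called by group. All 5 genes of this arm were lower in tumor in each of the 3 pairs of equal number, with a median difference of -0.41. With the replicate block 4 of the 5 were called lower (80%), against 17.3% of all genes. Xbp1, the transcription factor that Ern1 activates by splicing, had levels of 9.84, 9.93 and 10.35 in spleen and 9.39, 9.29 and 9.73 in tumor. Its tumor values all lay below its spleen values, and the difference was -0.57 ± 0.19 (adjusted p = 0.114, 0.00337 with the replicate block, and 0.0284 with the arrays numbered 1 and 2 alone). Atf6 stood at 8.86, 8.99 and 9.52 in spleen and 8.56, 8.56 and 9.05 in tumor, where the array numbered 3 was the high one in both groups. Tumor 3 lay above spleen 1 and 2, and the difference was -0.40 ± 0.22 (adjusted p = 0.375, 0.0151 with the replicate block). Eif2ak4, the sensor of amino acid shortage, had a difference of -0.41 ± 0.18 (adjusted p = 0.239, 0.0118 with the replicate block). Ern1, the kinase and nuclease that splices Xbp1, had -0.23 ± 0.17 (95% interval -0.61 to 0.15, adjusted p = 0.537, 0.117 with the replicate block). The gene-level values of Xbp1 do not part its spliced from its unspliced form.

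**Figure D2:**
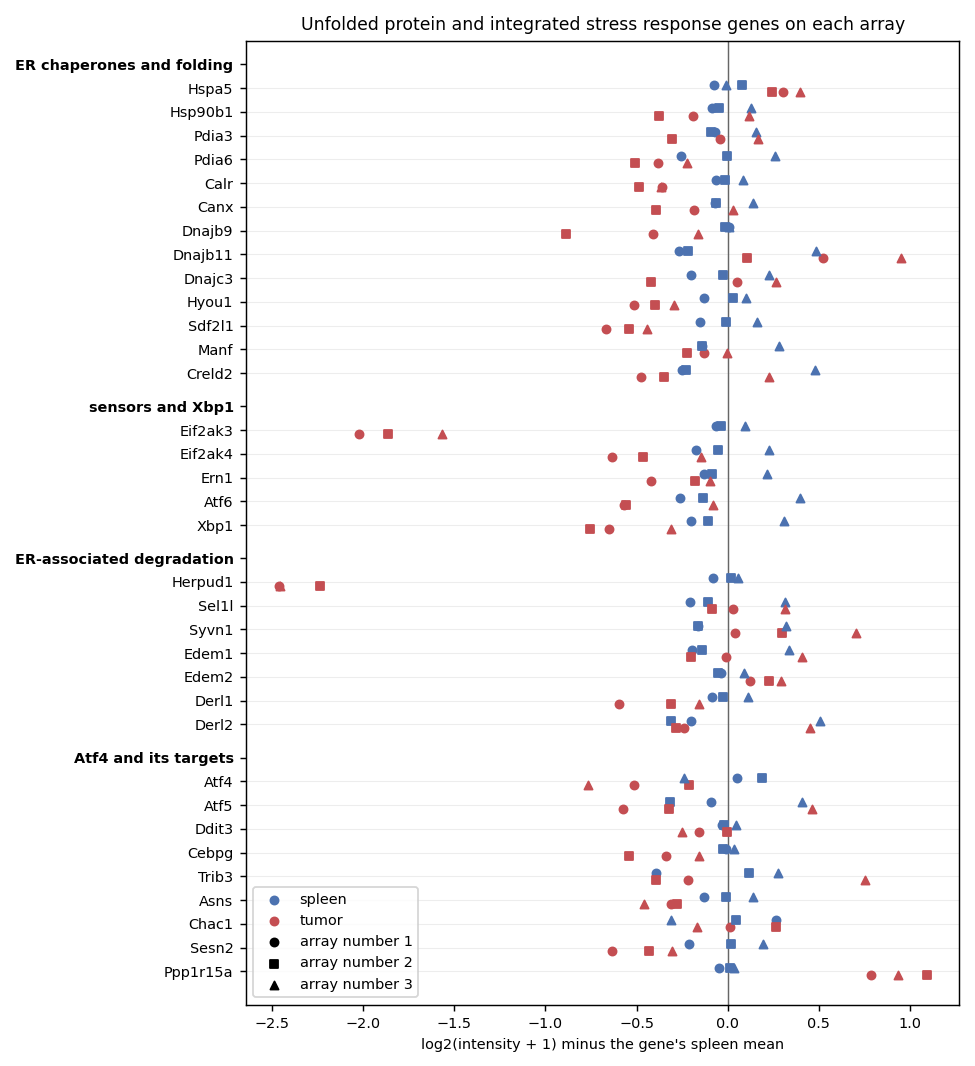
Level of each of the 34 genes on each of the 6 arrays (x axis, log2(intensity + 1) minus the gene's spleen mean), spleen in blue and tumor in red, with the marker shape giving the array number. Herpud1 and Eif2ak3 have all 3 tumor arrays far to the left of the spleen arrays and Ppp1r15a has them to the right, while the triangles of number 3 often lie to the right of the other arrays in both groups.

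Herpud1 was the only gene called by group of the 7 in ER-associated degradation, whose median difference was 0.07. With the replicate block 2 were lower (28.6%) and 1 higher (14.3%), against 17.3% and 11.7% of all genes. Syvn1 (HRD1), the ubiquitin ligase of the complex that Herpud1 supports, had levels of 7.61, 7.61 and 8.09 in spleen and 7.81, 8.07 and 8.47 in tumor. Each tumor array lay above the spleen array of its number but the groups overlapped, and the difference was 0.35 ± 0.22 (adjusted p = 0.455, 0.0322 with the replicate block). Sel1l, the adaptor that holds this ligase to its substrates, had a difference of 0.09 ± 0.19 (95% interval -0.35 to 0.52, adjusted p = 0.916). Edem1 and Edem2, lectin-like proteins that mark misfolded glycoproteins for removal, had 0.07 ± 0.21 (adjusted p = 0.951) and 0.21 ± 0.14 (adjusted p = 0.48). All 3 tumor values of Edem2, 9.52, 9.63 and 9.70, lay above its spleen values of 9.36, 9.35 and 9.49. Derl1 and Derl2 encode derlins, membrane proteins of the channel through which substrates leave the ER. Derl1 stood at 9.40, 9.46 and 9.59 in spleen and 8.89, 9.17 and 9.33 in tumor, without overlap, a difference of -0.36 ± 0.16 (adjusted p = 0.259, 0.0308 with the replicate block). Derl2 differed by -0.02 ± 0.27 (adjusted p = 0.986), and its second probe set gave 0.13.

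None of the 13 chaperones and folding factors was called in either direction by group. With the replicate block 5 were lower (38.5%) and 2 higher (15.4%), against 17.3% and 11.7% of all genes. Their median difference was -0.18, from -0.55 to 0.53, and all 13 lay within 1.5-fold. Without adjustment 4 had a limma p under 0.05, all 4 lower in tumor. At that threshold 2271 of the 18458 genes tested were lower and 1715 higher. Sdf2l1, a partner of the chaperone Hspa5, came nearest to a call. Its level was 9.07, 9.21 and 9.39 in spleen and 8.56, 8.68 and 8.78 in tumor, with no overlap and a like gap in each pair of equal number. The difference was -0.55 ± 0.15 (adjusted p = 0.0563, 0.00329 with the replicate block, and 0.0434 with the arrays numbered 1 and 2 alone).

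Hspa5 (BiP), the main chaperone of the ER lumen and the usual readout of the response, pointed the other way. Its level was 9.21, 9.36 and 9.27 in spleen and 9.58, 9.52 and 9.68 in tumor, so that every tumor array lay above every spleen array. The difference was 0.31 ± 0.14 (95% interval -0.001 to 0.63, adjusted p = 0.234, 0.0485 with the replicate block). The Hspa5 call with the block depended on scaling. Its adjusted p was 0.122 with the block and quantile normalization and 0.0179 with the block and cyclic loess. Dnajb11 (ERdj3), a co-chaperone that brings substrates to Hspa5, had levels of 8.45, 8.50 and 9.20 in spleen and 9.24, 8.82 and 9.67 in tumor. Each tumor array lay above the spleen array of its number, and the difference was 0.53 ± 0.27 (adjusted p = 0.331, 0.0118 with the replicate block). Hspa5 and Dnajb11 were the only chaperones with a positive difference.

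Calr, the lectin chaperone calreticulin, had levels of 11.58, 11.63 and 11.73 in spleen and 11.28, 11.16 and 11.28 in tumor, without overlap. Its difference was -0.41 ± 0.14 (adjusted p = 0.113, 0.0151 with the replicate block). Hyou1, which exchanges nucleotide on Hspa5, stood at 8.83, 8.98 and 9.06 in spleen and 8.44, 8.56 and 8.66 in tumor, again without overlap. The difference was -0.40 ± 0.15 (adjusted p = 0.14, 0.0129 with the replicate block). Dnajb9 (ERdj4), a co-chaperone that is a known Xbp1 target, had a narrow spleen group at 9.03, 9.01 and 9.03 and a wide tumor group below it at 8.62, 8.14 and 8.86, a difference of -0.49 ± 0.20 (adjusted p = 0.19, 0.0357 with the replicate block). Pdia6, a protein disulfide isomerase, differed by -0.37 ± 0.18 (adjusted p = 0.276, 0.0402 with the replicate block), with spleen 1 inside the range of the tumor arrays. With the block and cyclic loess, Dnajb9 and Pdia6 were not called (adjusted p = 0.0631 and 0.0826). With the block and quantile normalization both were called lower (0.0186 and 0.00932).

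The last 6 chaperones were called in neither fit. Hsp90b1 (GRP94), the ER form of the Hsp90 chaperone, had a difference of -0.15 ± 0.17, and Canx, the membrane lectin calnexin, of -0.18 ± 0.16. Pdia3, the disulfide isomerase that works with both lectins, differed by -0.06 ± 0.17 and Dnajc3, a co-chaperone that inhibits Eif2ak3, by -0.04 ± 0.21. Creld2 and Manf, secreted or ER-held proteins induced by ER stress, had -0.20 ± 0.26 and -0.12 ± 0.17. Adjusted p-values of the 6 lay between 0.669 and 0.975. Manf was the only 1 of the 34 genes whose intensity lay under the median of tested genes on every array.

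Ppp1r15a was the single gene called higher. It encodes GADD34, an inducible subunit that brings protein phosphatase to eIF2. Its level was 7.80, 7.86 and 7.88 in spleen and 8.64, 8.94 and 8.78 in tumor (probe set 17490878, Entrez gene 17872). The groups lay well apart. The difference was 0.94 ± 0.15 (95% interval 0.61 to 1.27), 1.92-fold (adjusted p = 0.00448), and pairs of equal number gave 0.84, 1.08 and 0.90. Its rank was 782 from the highest difference of 18458 genes.

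The transcription factors upstream and beside Ppp1r15a did not rise with it. Atf4, the central factor of the integrated stress response, had levels of 8.88, 9.02 and 8.59 in spleen and 8.32, 8.62 and 8.06 in tumor. Tumor 2 lay just above spleen 3, and the difference was -0.50 ± 0.19 (adjusted p = 0.169, 0.006 with the replicate block). Here the arrays numbered 3 were the low ones of both groups. Ddit3 (CHOP), the factor linked to cell death in prolonged stress, stood at 7.002, 7.012 and 7.077 in spleen and 6.871, 7.027 and 6.779 in tumor, overlapping, with a difference of -0.14 ± 0.14 (95% interval -0.46 to 0.18, adjusted p = 0.726). Cebpg, a partner of Atf4, had -0.35 ± 0.15 (adjusted p = 0.233, 0.0384 with the replicate block) and Atf5, a factor translated like Atf4 under stress, -0.14 ± 0.29 (adjusted p = 0.907).

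Target genes of Atf4 among the 34 gave no common direction. Sesn2, a sestrin that restrains growth signalling, had levels of 9.36, 9.60 and 9.77 in spleen and 8.94, 9.15 and 9.27 in tumor. The groups did not overlap, and the difference was -0.46 ± 0.17 (adjusted p = 0.146, 0.00752 with the replicate block). Asns, the asparagine synthetase, stood at 6.27, 6.39 and 6.54 in spleen and 6.09, 6.13 and 5.95 in tumor, also without overlap, a difference of -0.35 ± 0.15 (adjusted p = 0.21, 0.0534 with the replicate block). Trib3, a pseudokinase that dampens Atf4, differed by 0.05 ± 0.31 and Chac1, which breaks down glutathione, by 0.04 ± 0.20, with adjusted p-values of 0.981 and 0.974. For Trib3 tumor 3 was the highest array at 6.26 and tumor 2 was among the lowest at 5.11. Of the 9 genes of this arm 1 was called higher and none lower by limma, with a median difference of -0.14. At an unadjusted limma p under 0.05 there were 3 lower and 1 higher, where 2271 of the 18458 genes tested were lower and 1715 higher. With the replicate block 3 were called lower (33.3%) and 1 higher (11.1%), against 17.3% and 11.7% of all genes.

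**Figure D3:**
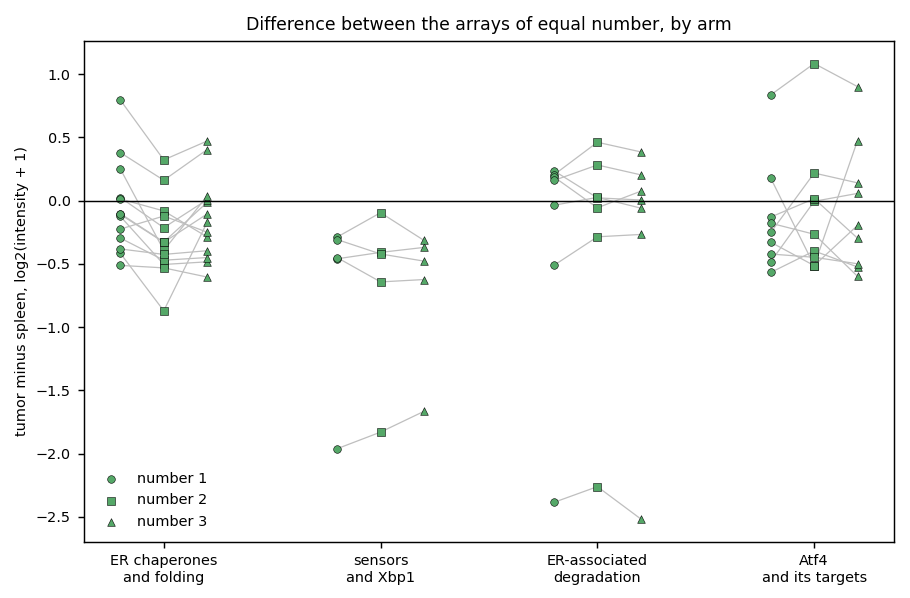
Difference between the tumor and the spleen array of equal number (y axis, log2(intensity + 1)) for each of the 34 genes, in the 4 arms along the x axis, with 1 line per gene joining its values for numbers 1, 2 and 3. The sensor arm lies wholly below 0, while the chaperone, degradation and Atf4 arms have genes on both sides of it.

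The promoters of Eif2ak3 and Ppp1r15a are shown beside those above because these are the other called genes. Neither holds any of the 4 elements searched in this stretch, so no base is in capitals. The Eif2ak3 stretch lies at chr6:70844365-70844514 on the plus strand and that of Ppp1r15a at chr7:45526269-45526418 on the minus strand.
Eif2ak3: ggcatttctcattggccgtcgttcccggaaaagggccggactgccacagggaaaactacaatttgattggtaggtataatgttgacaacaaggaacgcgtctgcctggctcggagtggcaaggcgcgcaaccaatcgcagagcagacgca
Ppp1r15a: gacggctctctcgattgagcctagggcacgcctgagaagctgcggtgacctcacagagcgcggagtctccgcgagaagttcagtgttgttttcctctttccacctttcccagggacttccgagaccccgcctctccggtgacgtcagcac

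Stress elements in the promoters were described for the genes with a RefSeq window, which runs from 250 bases before to 50 after the transcript start. Of the 35 genes 31 had one. Both strands were searched for ERSE (CCAAT, 9 bases, CCACG), bound by Atf6 with NF-Y, for ERSE-II (ATTGGNCCACG), for the core of the unfolded protein response element (TGACGTGG) and for the C/EBP-ATF element (TGATGNAA). ERSE and ERSE-II share the end CCACG, and the letters of the last element were chosen with the promoters in view. ERSE stood in 39 of 32851 mouse windows (0.119%) and in those of 8 of these genes. ERSE-II stood in 12 windows (0.0365%), those of Herpud1 and Dnajb11 among them. The core of the unfolded protein response element stood in 222 windows (0.676%) and in none of these genes. The C/EBP-ATF element stood in 1304 windows (3.97%), with Asns, Chac1, Herpud1 and Trib3 among them.

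Genes with the same element did not all differ in the same direction. The sites below are shown so that their genes' values can be set beside them, with capitals for the fixed letters of the element. Positions count from the first base of the transcript.
Hspa5, ERSE at -65: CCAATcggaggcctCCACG
Calr, ERSE at -162: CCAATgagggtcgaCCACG
Syvn1, ERSE at -44: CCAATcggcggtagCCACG
Herpud1, ERSE-II at -52: ATTGGgCCACG
Dnajb11, ERSE-II at 8: ATTGGcCCACG
Herpud1, C/EBP-ATF element at -112: TGATGcAA
Asns, C/EBP-ATF element at -23: TGATGaAA
Chac1, C/EBP-ATF element at -193: TGATGcAA
Trib3, C/EBP-ATF element at 15: TGATGtAA
The differences of the 8 genes with ERSE ran from -0.41 for Calr to 0.35 for Syvn1, and none of the 8 was called by group. Only Syvn1 and Hspa5 (0.31) were positive. Besides Calr, Pdia6 (-0.37), Creld2 (-0.20), Canx (-0.18), Hsp90b1 (-0.15) and Dnajc3 (-0.04) were negative. The pair with ERSE-II had the lowest difference of the 34 genes, Herpud1 at -2.39, and 0.53 for Dnajb11, whose element lies inside the transcript. With the C/EBP-ATF element, Herpud1 was called lower while Asns, Chac1 and Trib3 were not called. A match is a description of these letters and not of a bound site.

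**Figure D4:**
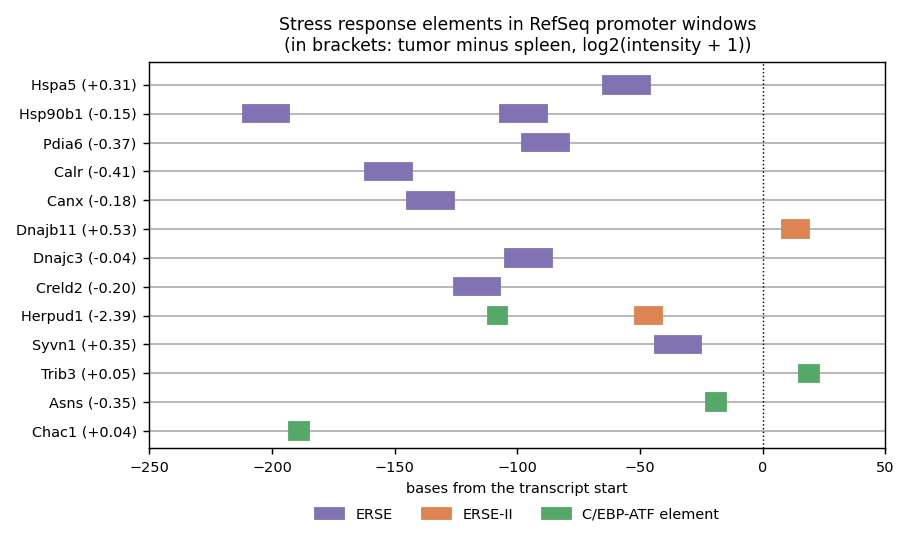
Position of each element match along the RefSeq promoter window (x axis, bases from the transcript start) for the 13 genes with a match, with the difference between tumor and spleen in brackets on the log2(intensity + 1) scale. Herpud1 alone carries matches of 2 kinds, ERSE-II at -52 and the C/EBP-ATF element at -112, and the first bases of ERSE matches lie between -212 and -44.

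Wider lists of the pathway were counted in both fits. The shares of all genes tested were 4.85% lower and 5.73% higher by group, and 17.3% lower and 11.7% higher with the replicate block. Of 14 further folding enzymes none was called by group, 8 were lower (57.1%) and none higher with the replicate block, and their median difference was -0.33. P4hb, the classic protein disulfide isomerase, had -0.65 ± 0.18 (adjusted p = 0.0616) and Sil1, an exchange factor of Hspa5, -0.53 ± 0.18 (adjusted p = 0.115). Of 15 genes of translocation and signal peptidase none was called, 7 were lower with the replicate block (46.7%), and the median was -0.31. Sec61b, a subunit of the translocation channel, had -0.52 ± 0.19 (adjusted p = 0.138) and Ssr2, of the translocon-associated complex, -0.41 ± 0.15 (adjusted p = 0.159). Of 16 further degradation genes none was called and 4 were lower with the replicate block (25%), with a median of -0.14. Selenos, a selenoprotein of the degradation complex, had -0.43 ± 0.15 (adjusted p = 0.122) and Derl3, the third derlin, -0.53 ± 0.19 (adjusted p = 0.133). In these 3 lists 3, 2 and 5 genes had a positive difference, and 6, 2 and 3 had an unadjusted limma p under 0.05, each of them lower in tumor. Among the 18458 genes tested 2271 were lower and 1715 higher at that threshold.

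The eIF2 kinases parted. Eif2ak2 (PKR), the kinase that senses double-stranded RNA and is induced by interferon, rose from 7.81 ± 0.30 to 10.57 ± 0.27 (SD, n = 3), a difference of 2.76 ± 0.21 or 6.79-fold (adjusted p = 7.51e-05), while Eif2ak3 fell. Eif2ak1 (HRI) had -0.36 ± 0.24 (adjusted p = 0.511, 0.0247 with the replicate block). Ppp1r15b, the constitutive partner of the eIF2 phosphatase, rose by 0.94 ± 0.17 (adjusted p = 0.00805). Nck1, an adaptor that also takes part in eIF2 dephosphorylation, rose by 0.96 ± 0.21 (adjusted p = 0.0212), a call lost without spleen 1, spleen 2 or tumor 1 (adjusted p up to 0.0954). Impact, an inhibitor of Eif2ak4 activation, fell by 1.29 ± 0.21 (adjusted p = 0.00534). Of the 13 genes of this list 3 were called higher and 1 lower by group. With the replicate block 3 were higher (23.1%) and 4 lower (30.8%), against 11.7% and 17.3% of all genes. None of the 5 subunits of eIF2B, the exchange factor blocked by phosphorylated eIF2, was called in either fit.

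Of 20 further Atf4 targets 3 were called higher and 3 lower, with a median difference of -0.06. With the replicate block 6 were higher (30%) and 7 lower (35%). Nupr1, a small stress-induced chromatin protein, rose from 7.22 ± 0.04 to 8.54 ± 0.09 (SD, n = 3), a difference of 1.32 ± 0.14 (adjusted p = 0.000501). Wars, the tryptophan tRNA synthetase, which interferon also induces, rose by 0.83 ± 0.14 (adjusted p = 0.00595). Slc7a11, the cystine transporter, rose by 0.76 ± 0.18 (adjusted p = 0.0337), a call lost without spleen 1, spleen 2 or any of the tumor arrays (adjusted p up to 0.146).

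Mars1 and Gars, the methionine and glycine tRNA synthetases, fell by 0.68 ± 0.15 (adjusted p = 0.0244) and 0.67 ± 0.16 (adjusted p = 0.0295). Mars1 lost its call without any of the spleen arrays or tumor 1 (adjusted p up to 0.122), and Gars without any of the spleen arrays, tumor 1 or tumor 2 (adjusted p up to 0.139). Slc7a5, a carrier of large neutral amino acids, fell by 0.66 ± 0.17 (adjusted p = 0.0449), a call lost without any 1 of the 6 arrays (adjusted p up to 0.186).

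**Figure D5:**
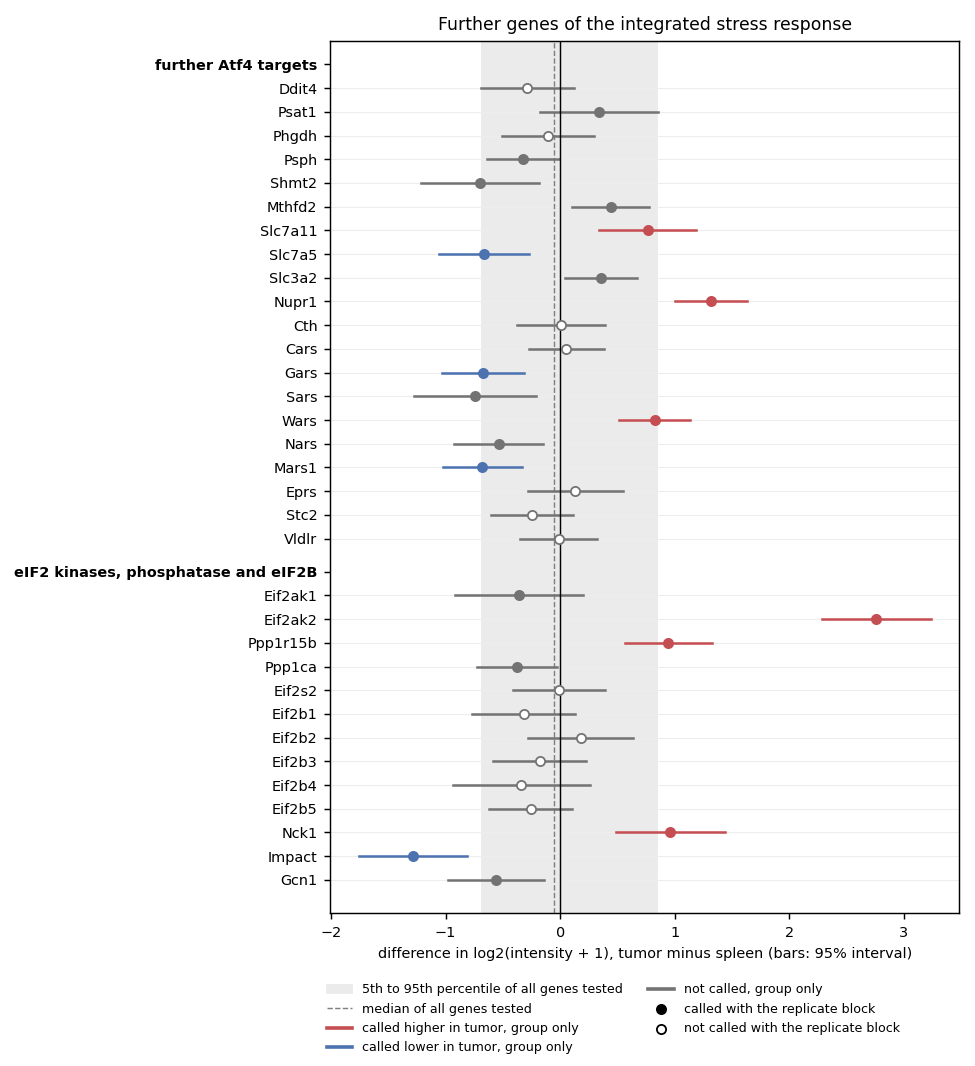
Difference between tumor and spleen (x axis, log2(intensity + 1), tumor minus spleen, bars for the 95% interval) for 20 further Atf4 targets and 13 genes around eIF2; the grey band and dashed line are as in the plot of the 34 genes. Eif2ak2 at 2.76 and Nupr1 at 1.32 are the highest, Impact at -1.29 is the lowest, and called genes stand on both sides.

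Of 13 further sensors and regulators 2 were called higher and 1 lower by group, with a median difference of -0.10. With the replicate block 3 were higher (23.1%) and 2 lower (15.4%). Bcl2l11 (BIM), a death protein that Ddit3 can induce, rose by 0.73 ± 0.17 (adjusted p = 0.0279), a call lost without spleen 1, spleen 2, tumor 1 or tumor 3 (adjusted p up to 0.126). Traf2, an adaptor through which Ern1 signals, rose by 0.68 ± 0.18 (adjusted p = 0.0457), and its call was kept only without tumor 1 (adjusted p up to 0.157 without another array). Creb3l2, a membrane-bound factor related to Atf6, fell by 0.96 ± 0.23 (adjusted p = 0.0343), a call lost without spleen 2, spleen 3, tumor 1 or tumor 2 (adjusted p up to 0.144). Atf3, a further stress factor downstream of Atf4, had a difference of 0.10 ± 0.16 (adjusted p = 0.865).

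The arrays and the sorted cells were checked over all genes. Array medians of log2(intensity + 1) were 4.50 to 4.51 on the arrays numbered 1 and 2 and 4.73 and 4.76 on those numbered 3. Of 11 monocyte markers tested 5 were called higher and 3 lower in tumor. The shares over all genes tested were 5.73% and 4.85%. Called lower were Ccr2 (-0.93), Csf1r (-0.57) and Itgam (-0.85), which encodes CD11b. Ly6c2, a gene of the Ly6C antigen, was called higher (1.48). With single arrays left out, the adjusted p of Ly6c2, Itgam and Csf1r reached 0.0713, 0.0802 and 0.173. Plac8 (0.68) and Ly86 (0.60), also called higher, reached 0.119 and 0.163. The calls of Cd14, Fcgr1 and Ccr2 were kept (adjusted p up to 0.027). Fcgr1 had the largest difference (3.56 ± 0.16), and Lyz2 had the highest mean intensity (13.27 in spleen and 13.16 in tumor). Among 11 B and plasma cell markers, of interest because plasma cells have an expanded ER, none was called by limma (1 at an unadjusted p under 0.05), and their summed intensity ran from 340.5 to 476.8 in spleen and from 285.3 to 403.5 in tumor. Derl3 (-0.53) had the largest difference of that list and Sdc1 the highest mean intensity. Calls in the other lists were 1 of 7 T cell markers (Cd3g, -1.36), 0 of 4 NK cell, 1 of 10 neutrophil (Mmp8, -0.68), 1 of 8 dendritic cell (Zbtb46, 0.89), 1 of 3 erythroid (Tfrc, -1.68), 1 of 9 fibroblast and endothelium (Kdr, 2.88) and 0 of 9 melanocyte and epithelium, where no NK cell, melanocyte or epithelium marker had an unadjusted limma p under 0.05. Mmp8 lost its call without any of the spleen arrays, tumor 1 or tumor 2 (adjusted p up to 0.142), and Zbtb46 without spleen 1, spleen 2 or tumor 2 (adjusted p up to 0.0627). Summed intensities of the 2 groups did not overlap for monocyte markers (15000 to 15530 in spleen, 16680 to 18290 in tumor), neutrophil markers (3116 to 3750 in spleen, 2351 to 2597 in tumor), T cell markers (267.4 to 316.3 and 171.4 to 227.3), erythroid markers (200.6 to 304.6 and 92.9 to 119.4), and fibroblast and endothelium markers (657 to 715 and 857 to 1093). Such sums follow their brightest genes, and a gap can come from 1 gene. Examples are Fcgr1 (mean level 7.85 in spleen and 11.41 in tumor) and Kdr (5.67 and 8.54). The sums are thus no measure of cell content. Il9, Trat1, Klrb1c and Tyr did not pass the filter on low values. The part of these cells in the differences of the 34 genes was not tested.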

How the data were processed

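The deposited values are linear intensities, 1 for each probe set on each array, made with RMA (background correction, normalization and summary over probes) per the submitters' processing notes, with no version stated. Of 41345 probe sets 23521 carry 1 gene symbol per the platform annotation, 1814 carry several and 16010 are not listed. Only the first kind was used, 1 probe set per gene (22180 genes), the one with the highest mean intensity over the 6 arrays. A gene was tested if it lay above its array's 25th percentile on at least 3 arrays (18458 genes). Values were taken as log2(intensity + 1), which understates changes of dim genes, and the fit by group used them with no further scaling. Medians of the arrays numbered 3 were above the others, at 4.73 and 4.76 against 4.50 to 4.51. Whether all 6 arrays were normalized together is not known. Some older symbols were updated through the RefSeq table (build GRCm38.p6). The genome build behind the array design was not stated in the sources.

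A limma fit (version 3.58.1, R 4.3.3; two-sided, lmFit with eBayes, group as the only term) compared tumor with spleen, with Benjamini-Hochberg adjustment over all genes tested, and the script was tested on simulated data. The 34 genes, the pathway and marker lists and the promoter elements were chosen with earlier results of these data known. Named are all members, up to 3 called genes per direction of each pathway list or else the 2 of smallest p, and from each marker list the gene with the largest difference and the one of highest mean. Eif2ak1, Atf3, the eIF2B subunits and the monocyte markers Ly6c2, Ccr2, Itgam, Csf1r, Plac8, Ly86 and Cd14 were named after their values were seen.

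Pairing was checked because spleen and tumor arrays share replicate numbers. Deviations from the group means correlated across genes at 0.36, 0.44 and 0.71 for numbers 1, 2 and 3, so the number was also used as a block. Crossed pairs of numbers 1 and 2 gave 0.47 (spleen 1, tumor 2) and 0.35 (spleen 2, tumor 1), so these values do not show a pairing of numbers 1 and 2. The second principal component (31.6% of the variance) set number 3 apart in both groups, while the first (59.5%) parted tumor from spleen. The labels do not say what a number stands for. Alternatives were other pseudocounts, filters, normalizations, probe set rules, priors and thresholds, array weights, the replicate block, the arrays numbered 1 and 2, and each array left out.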

Additional observations from a re-analysis of the deposited data

How the results depend on the processing

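Herpud1 and Eif2ak3 kept their direction and call under all 24 alternatives, with differences from -2.46 to -2.31 and from -1.94 to -1.62 and adjusted p-values up to 0.00488 and 0.0127. Ppp1r15a (0.85 to 1.03) kept its call under 23 of 24 and missed only a threshold of at least 2-fold. Counts of the 34 genes called, 1 higher and 2 lower, stayed at 1 and 2 with each array left out. Called higher, with the share of all genes called higher in brackets, were 2 after cyclic loess (10.0%) and 3 with array weights (15.5%). Counts with the replicate block were 4 (11.7%), with the block and quantile normalization 3 (11.7%), and with the block and cyclic loess 4 (14.0%). At 2-fold or more 0 were called higher (3.74%). Called lower, with the share of all genes called lower in brackets, were 3 with a 50th percentile filter (7.65%), 4 with a pseudocount of 16 (5.71%), 11 after quantile normalization (10.4%), 8 after median centring (9.79%), 4 after cyclic loess (7.21%), 16 with array weights (22.9%), 14 with the replicate block (17.3%), 14 with the block and quantile normalization (17.6%), 10 with the block and cyclic loess (12.8%), and 4 with the arrays numbered 1 and 2 (8.41%). The block was joined to a second normalization after seeing the data. The cause of these changes was not tested.

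Over all genes tested, leaving out 1 array gave 661 (without spleen 2) to 1240 (without spleen 3) genes called higher and 294 (without tumor 1) to 1038 (without tumor 3) called lower, against 1057 and 896 with all arrays. An unmoderated fit gave 522 and 382. With every probe set adjusted for, 788 and 507 genes were called.

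A change of sign occurred for 10 genes, none of them called in the fit by group or under a setting that turned the sign. With each array left out in turn, Pdia3 ranged from -0.17 to 0.060, Dnajc3 from -0.19 to 0.16, Manf from -0.19 to 0.022, Creld2 from -0.41 to 0.040, Sel1l from -0.028 to 0.24, Edem1 from -0.10 to 0.24, Derl2 from -0.26 to 0.23, Atf5 from -0.45 to 0.071, Trib3 from -0.31 to 0.27 and Chac1 from -0.12 to 0.17. Cyclic loess, with or without the block, gave Pdia3 0.0056, Dnajc3 0.046 and Derl2 0.091. Quantile normalization, with or without the block, gave Sel1l -0.027 and Derl2 0.040. Array weights gave Pdia3 0.00031, Dnajc3 0.024, Derl2 0.061, Trib3 -0.25 and Chac1 -0.025, and the mean of probe sets gave Derl2 0.055. The arrays numbered 1 and 2 gave Trib3 -0.17 and Chac1 -0.017. All 34 genes lay above the 25th percentile of tested genes on every array, which is no test of detection, and the number of arrays limits the precision.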
